A study of Mus musculus with 8 samples.

Results

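The genes described here encode the complement and coagulation factors of blood plasma, with their inhibitors and the enzymes that dissolve clots. They were chosen by name: 43 listed genes, each represented by the array probe that names that gene alone and, where several do, by the one with the highest mean over the 8 arrays. Such a probe was found for 40 of the 43 listed genes, out of 19938 genes on the array with 1 gene symbol per probe. C3, the carboxypeptidase Cpb2 and plasma kallikrein (Klkb1, whose probe it shares with another gene) were not analysed here. All 40 measured genes lay above the filter on low levels and were among the 11963 genes tested.

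The samples came from 4 male C57BL/6J mice, M24, M48, M50 and M60, that had each received an AAV vector (adeno-associated virus, a gene delivery vector) at an age of 2 to 3 months. At necropsy 18 months later, a hepatocellular carcinoma and liver next to it were taken from every animal, so that there are 4 tumors and 4 matched pieces of adjacent liver. The labels do not name what the vector carried, and all of the mice had both vector and tumor, so the adjacent tissue is not the liver of an untreated animal. The comparison asks how tumor expression differed from that of the adjacent liver of the same mouse.

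Complement is a cascade of plasma proteases that marks and lyses targets. It starts through antibody-bound C1 (the classical pathway), through lectins that bind microbial sugars (the lectin pathway) or through factor B and properdin on C3 (the alternative pathway), and it ends in a pore of C5 to C9. Coagulation is a second cascade, in which vitamin K dependent proteases and their cofactors lead to thrombin, which turns fibrinogen into fibrin, while antithrombin and protein C hold it back and plasmin dissolves the clot. Hepatocytes make most of these proteins, whereas C1q and properdin come largely from myeloid cells and factor VIII from endothelial cells.

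Levels are log2 values as deposited. A difference is the tumor level minus that of the adjacent liver (log2 units, n = 4 mice), and its standard error (SE) and adjusted p come from a limma fit with the mouse as a block. The verbs rose and fell are kept for genes with a Benjamini-Hochberg adjusted p under 0.05 over all tested genes. Values per sample stand in the order M24, M48, M50 and M60. The 95% intervals are not adjusted for the number of genes, so an interval can leave out 0 for a gene that did not pass. The arrays had medians from 4.89 to 5.01 and highest values from 14.37 to 14.49. Changes can be compressed near that top, where the fibrinogen genes Fgb and Fgg, kininogen and vitronectin lie. M48 stood apart in both tissues by its macrophage markers, whose mean level was 9.36 in its tumor, against 7.95 to 8.19 in the other tumors, and 9.53 in its adjacent liver, against 7.47 to 8.65 in the other adjacent samples.

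Lectin pathway genes and parts of the membrane pore were lower in the tumors, and F11 and Serpinf2 were higher. The fibrinogen genes Fgb and Fgg and prothrombin differed by little. Of the 40 genes 15 fell and 2 rose. Over all tested genes 15.7% fell and 16.3% rose, 31.9% in either direction. These shares are the background for the counts of every branch and list below. An unadjusted p under 0.05 in limma was found for 22 of the 40 members. Over all tested genes it was found for 5090 of 11963, so it was common in these data. The share of members that fell was 37.5%, and the median difference of the 40 members was -0.22, beside 0.00080 over all tested genes. Among the 800 tested genes with a mean level of 10 or more, 32% fell and 16.1% rose, and among the 29 members at that level 9 fell, which is 31%, and 1 rose. The median difference at that level was -0.16 for the members and -0.084 for all tested genes. There an unadjusted p under 0.05 was found for 14 of the 29 members and 477 of the 800 genes. Of the 13 members at a mean of 12 or more 1 fell (7.69%), beside 20.4% of the 113 tested genes at that level. Of the 11 members with a mean under 10, 6 fell (54.5%), beside 15.7% of tested genes at any level. The share of members that fell was thus larger at lower levels, though it rests on 13 members at 12 or more and 11 under 10. Over all tested genes the share was larger at 10 or more (32%) than at any level (15.7%). From 10 or more to 12 or more it became smaller (20.4%), as it did in the members. All 4 tumors lay below all 4 adjacent samples in 13 of the 40 members, beside 15.6% of all tested genes, and above them in 4 members, beside 14.9%. In bulk tissue, fewer cells of a type and less RNA per cell cannot be told apart.

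**Figure D1:**
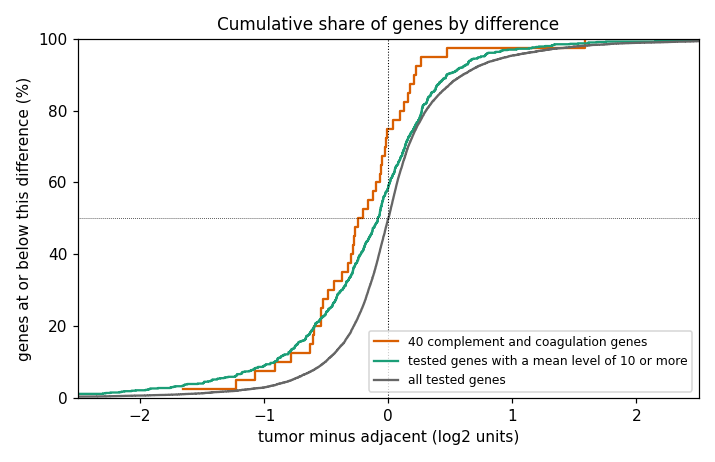
Cumulative share of genes (vertical axis, percent) at or below a given tumor minus adjacent difference (horizontal axis, log2 units) for the 40 complement and coagulation genes, the tested genes with a mean level of 10 or more and all 11963 tested genes. The line of the 40 genes crosses 50% at a difference near -0.22, left of the line of all tested genes, whose median is 0.00080. The tested genes with a mean level of 10 or more have a median of -0.084.

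Hepatocyte identity was checked with markers that are no members. The mean level of 9 hepatocyte markers was 12.94 to 13.12 in tumors and 13.06 to 13.16 in adjacent liver. Of these genes 1 rose and 1 fell (11.1% each), beside 16.3% and 15.7% of all tested genes. The apolipoprotein Apoa1 rose by 0.32 and the asialoglycoprotein receptor Asgr1 fell by 0.60, without overlap of its groups. Asgr1 averaged 10.38 in tumors and 10.98 in adjacent liver. The other markers lie nearer the top of the arrays, where changes can be compressed, so a change in their mean could be understated. The secreted proteins fetuin A (Ahsg, 0.19, adjusted p = 0.136) and Apoh (-0.42, adjusted p = 0.0921) did not pass, and none of the 9 lay below the filter level.

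Promoter sequence was available for 35 of the 43 listed genes and for 32 of the 40 measured ones, from RefSeq (GRCm38.p6), and the 250 bases before the annotated start were searched. The motifs were GTTAAT, part of the site of HNF1, AAAGTCC, the core of the site of HNF4, and TTGCNNAA, a site of C/EBP proteins, each on both strands. These factors are known regulators of liver-specific genes. GTTAAT was present in 11 of the 32 members (34.4%) and in 6.44% of 32817 promoter windows, and TTGCNNAA in 7 members (21.9%) and in 9.57% of windows. AAAGTCC was found in 1 member (3.12%), C8a, and in 3.59% of windows. By outcome, GTTAAT stood in 4 of 14 members that fell, 0 of 2 that rose and 7 of 16 that did not pass. A match is a description of letters and not a bound site.

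Shown here are 5 of these windows, those of the gene with the largest rise (F11), the gene with the largest fall (Mbl1), the neighbouring genes C8b and C8a, which encode subunits of 1 protein and had different calls, and Fgb, which differed by little. Each runs 5′ to 3′ along its gene and ends at the base before the start, and capitals mark motif matches. The windows are chr8:45262032-45262281 on the minus strand for F11, chr14:41151206-41151455 on the plus strand for Mbl1, chr4:104766067-104766316 on the plus strand for C8b, chr4:104876399-104876648 on the minus strand for C8a and chr3:83049864-83050113 on the minus strand for Fgb.
F11: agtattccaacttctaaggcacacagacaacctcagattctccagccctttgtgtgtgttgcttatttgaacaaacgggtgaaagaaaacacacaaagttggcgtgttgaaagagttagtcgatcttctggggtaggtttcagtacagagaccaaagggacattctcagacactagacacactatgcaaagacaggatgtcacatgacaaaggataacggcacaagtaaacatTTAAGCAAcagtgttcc
Mbl1: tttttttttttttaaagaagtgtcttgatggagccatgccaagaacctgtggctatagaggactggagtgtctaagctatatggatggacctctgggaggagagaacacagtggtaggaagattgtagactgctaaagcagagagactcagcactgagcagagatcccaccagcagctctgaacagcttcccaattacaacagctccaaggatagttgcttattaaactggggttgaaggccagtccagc
C8b: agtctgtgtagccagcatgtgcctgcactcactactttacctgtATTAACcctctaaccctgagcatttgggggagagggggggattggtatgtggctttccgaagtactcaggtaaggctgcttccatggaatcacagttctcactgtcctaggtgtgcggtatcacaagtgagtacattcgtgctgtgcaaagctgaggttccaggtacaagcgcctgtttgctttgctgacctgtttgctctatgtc
C8a: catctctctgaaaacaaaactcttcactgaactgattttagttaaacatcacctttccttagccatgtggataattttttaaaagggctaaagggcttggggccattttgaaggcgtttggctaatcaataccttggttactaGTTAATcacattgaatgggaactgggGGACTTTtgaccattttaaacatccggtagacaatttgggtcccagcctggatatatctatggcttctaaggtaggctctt
Fgb: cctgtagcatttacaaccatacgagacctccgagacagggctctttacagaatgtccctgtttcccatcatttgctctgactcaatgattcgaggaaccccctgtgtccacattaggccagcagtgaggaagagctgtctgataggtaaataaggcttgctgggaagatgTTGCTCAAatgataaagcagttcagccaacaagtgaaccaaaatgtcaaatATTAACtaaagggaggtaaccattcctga
F11 has a C/EBP match 17 to 10 bases before the start, and Mbl1 has none of the 3 motifs. C8b has an HNF1 match 206 to 201 bases before the start. C8a has such a match 107 to 102 bases before it and the HNF4 core at 81 to 75 bases. Fgb has an HNF1 match 29 to 24 bases before the start and a C/EBP match at 80 to 73 bases. None of these matches overlaps another.

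Of the 8 members in the first steps of the classical and lectin pathways, 6 fell and 0 rose, with a median difference of -0.51. An unadjusted p under 0.05 was found for 7 of 8, all of them lower. The C1q genes of the classical pathway are no members. They stood above 0 without passing, at 0.45 (C1qa), 0.56 (C1qb) and 0.63 (C1qc). Mannose-binding lectin A (Mbl1), a pattern recognition protein, had the largest fall of all 40 members. It was at 8.85, 8.79, 8.56 and 8.06 in tumors, against 10.20, 9.92, 10.28 and 10.47 in adjacent liver. Every tumor lay more than 1 log2 unit below its own adjacent sample, with the greatest distance in M60 (-2.41) and the smallest in M48 (-1.13), and the groups did not overlap. The mean difference was -1.65 (SE 0.201, adjusted p = 0.00202), which puts the tumor level at 31.9% of the adjacent one (95% interval of the fold 0.228 to 0.445). Its relative mannose-binding lectin C (Mbl2) was at 10.86, 9.96, 10.80 and 10.57 in tumors, against 11.30, 11.29, 11.19 and 11.55 in adjacent liver. All 4 tumors were lower, here with the greatest distance in M48 (-1.33). Mbl2 fell by 0.79 (SE 0.169, adjusted p = 0.0141), and without M60 its adjusted p was 0.0596.

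The proteases that these lectins carry fell too. Masp1, whose gene gives several products that 1 probe does not separate, fell by 0.53 (adjusted p = 0.0108), with levels of 9.50, 9.73, 9.06 and 9.02 in tumors and 9.84, 10.10, 9.63 and 9.85 in adjacent liver. Lower values were found in each mouse, but the groups overlapped because the M48 tumor lay above the adjacent liver of M50. Masp2, the protease that cleaves C4 and C2, fell by 0.48 (adjusted p = 0.00957) and was at 10.43, 10.12, 9.98 and 10.30 in tumors, against 10.78, 10.51, 10.71 and 10.77 in adjacent liver, with no overlap.

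C1ra and C1s1 encode the protease pair of the C1 complex. C1ra was at 7.38, 7.44, 7.47 and 7.17 in tumors, against 7.92, 7.91, 7.92 and 7.88 in adjacent liver, a tight pair of groups without overlap, and fell by 0.54 (SE 0.0866, adjusted p = 0.00493). C1rb is a near copy of C1ra, and a further probe that names both was not used, so signal of the pair may be shared. C1s1 fell by 0.32 (adjusted p = 0.0384), a call that was lost in 7 of 11 alternative settings. Next to them in the genome, the C1r-like protease C1rl differed by -0.28 (adjusted p = 0.0734, 95% interval -0.52 to -0.045) and did not pass. C2, the protease of the C3 convertase of these pathways, stood at -0.007, with an interval of -0.26 to 0.25, lower in M24 (-0.29), higher in M50 (0.27) and near 0 in M48 and M60.

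**Figure D2:**
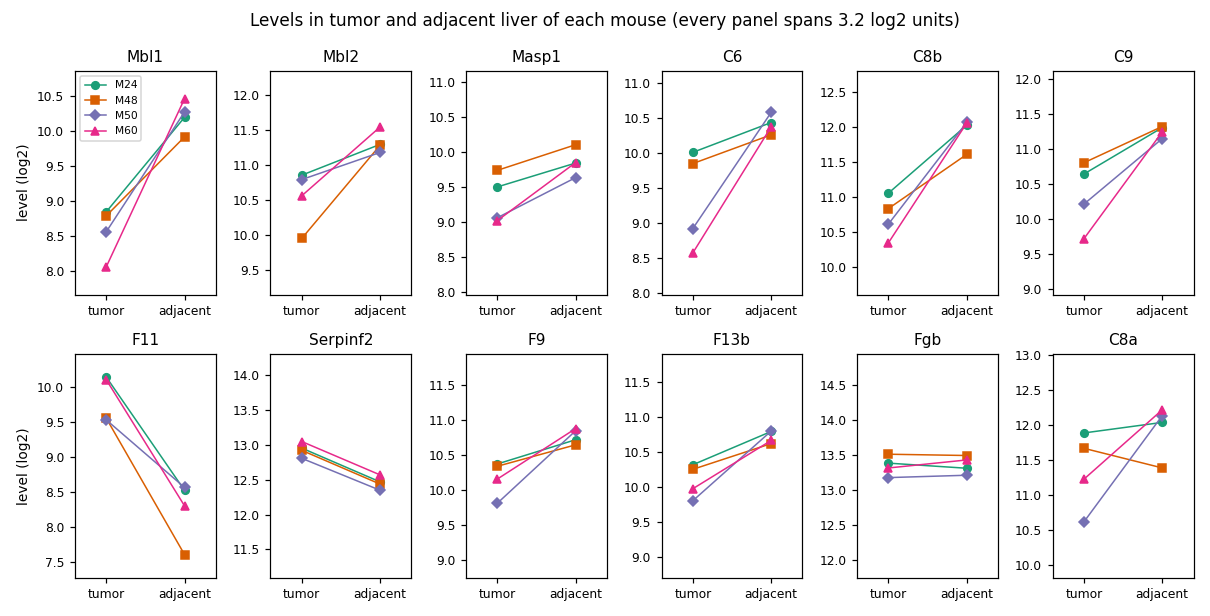
Levels (vertical axes, log2, all panels with a span of equal size) in tumor (left) and adjacent liver (right) of each mouse for 12 genes, with a line per mouse. Mbl1, C6, C8b and C9 slope up to the adjacent liver in all 4 mice, F11 and Serpinf2 slope down, Fgb is nearly flat at 13.18 to 13.52, and C8a splits between mice.

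On the alternative pathway, Cfb and Cfp did not pass (0 of 2, also at an unadjusted p under 0.05). Factor B (Cfb), the protease of the alternative C3 convertase, was at 12.71, 12.92, 12.67 and 12.61 in tumors and 12.71, 12.78, 12.70 and 12.82 in adjacent liver, and its difference of -0.026 had an interval of -0.25 to 0.19. Properdin (Cfp), which stabilises that convertase and comes largely from myeloid cells, was at 7.61, 9.24, 7.70 and 7.66 in tumors, against 7.83, 9.27, 7.08 and 7.14 in adjacent liver. M48 was the highest mouse in both tissues, and the difference was negative in M24 and M48 and positive in M50 (0.62) and M60 (0.52). Macrophage markers moved beside it: their mean level over 12 genes was 8.19, 9.36, 7.95 and 8.13 in tumors, against 8.65, 9.53, 7.47 and 7.67 in adjacent liver. The direction of this mean in each mouse was that of Cfp. The median of the marker differences was not, as it was 0.050 in M48, where Cfp differed by -0.027. C1qa, C1qb and C1qc, complement genes that are also among these markers and were chosen for naming after their values were seen, differed by 0.45, 0.56 and 0.63, with adjusted p-values of 0.0712, 0.0737 and 0.0591. None of the 12 lay below the filter level, and 1 of them rose and 3 fell. The macrophage markers Timd4 (-0.94), Marco (-1.29) and Clec4f (-0.65) fell and Cd68 (0.98) rose. Vsig4 (-0.20), Cd5l (0.15), Csf1r (0.22), Adgre1 (0.43) and Lyz2 (0.57) did not pass. The median difference over the 12 markers was 0.32. The part of these markers in the Cfp values was not tested.

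**Figure D3:**
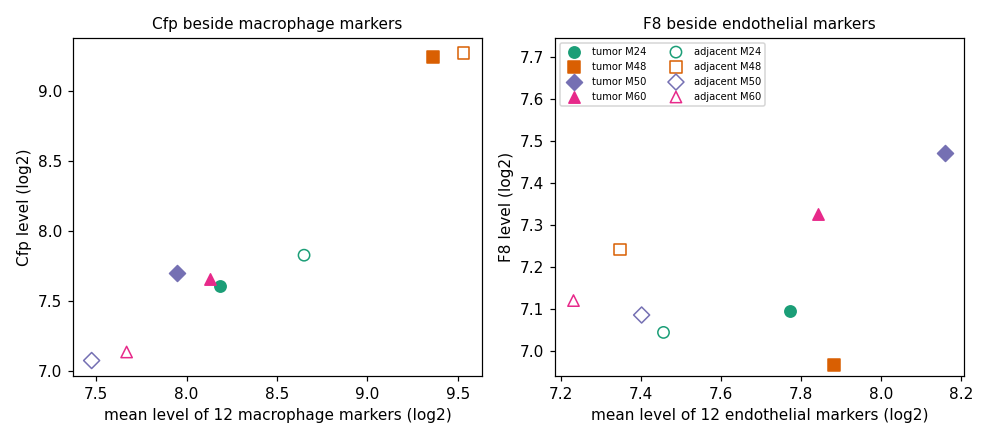
Level of Cfp against the mean level of 12 macrophage markers (left) and of F8 against that of 12 endothelial markers (right), all in log2, with filled symbols for tumors and open symbols for adjacent liver. Both M48 samples stand at the top right of the Cfp panel, at 9.24 and 9.27, while the M48 tumor has the lowest F8 level, 6.97.

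Terminal pathway genes went apart from one another: 3 of 6 fell and 0 rose, and the same 3 had an unadjusted p under 0.05. By mouse, the median difference of the 6 genes was -0.36 (M24), -0.19 (M48), -1.20 (M50) and -1.26 (M60). C8b, the beta chain of C8, was at 11.05, 10.83, 10.61 and 10.34 in tumors, against 12.03, 11.61, 12.07 and 12.06 in adjacent liver. The groups did not overlap, although the M48 adjacent sample was lower than the other 3. C8b fell by 1.23 (SE 0.163, adjusted p = 0.00269), to 42.7% of the adjacent level. C9, which forms most of the pore, was at 10.64, 10.80, 10.21 and 9.71 in tumors, against 11.30, 11.32, 11.14 and 11.24 in adjacent liver, again without overlap. It fell by 0.91 (SE 0.167, adjusted p = 0.008). For C6, which joins the pore after C5, levels were 10.01, 9.85, 8.92 and 8.57 in tumors and 10.43, 10.26, 10.58 and 10.37 in adjacent liver. The adjacent samples were alike, while the tumors of M50 and M60 lay more than 0.9 below those of M24 and M48. Its fall of 1.08 (SE 0.265, adjusted p = 0.0232) was not called without M50 (adjusted p = 0.0897) or without M60 (0.0759).

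The other C8 chains did not pass. C8a, the alpha chain and the genomic neighbour of C8b, was at 11.88, 11.66, 10.61 and 11.22 in tumors, against 12.03, 11.38, 12.13 and 12.21 in adjacent liver. Its tumor level was far below the adjacent one in M50 (-1.52) and M60 (-0.99), a little below it in M24 (-0.15) and above it in M48 (0.28). The mean difference was -0.60 (SE 0.283, adjusted p = 0.159, interval -1.27 to 0.081). Without M48 it was -0.89 with an adjusted p = 0.0448. C8g, the small lipocalin chain, was at 11.21, 11.15, 11.23 and 11.32 in tumors, against 11.50, 10.92, 11.55 and 11.59 in adjacent liver, and its difference of -0.16 had an interval of -0.44 to 0.11. It too was lower in 3 mice and higher in M48. C5, named Hc in the mouse, stood at -0.066 with an interval of -0.31 to 0.18.

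Of the complement inhibitors 0 of 4 passed the threshold (2 at an unadjusted p under 0.05, both lower). C1 inhibitor (Serping1) differed by -0.27 (adjusted p = 0.0964) and vitronectin (Vtn), which keeps the pore out of membranes, by -0.28 (adjusted p = 0.0696). Vtn was lower in every tumor, at 13.36, 13.44, 13.17 and 13.15, than in any adjacent sample, at 13.50, 13.60, 13.54 and 13.59. It passed in 1 of 11 alternative settings, with the lowest 60% of genes left out (adjusted p = 0.0391). The C4b-binding protein (C4bp) differed by 0.17 (adjusted p = 0.16) and factor I (Cfi), which cleaves C3b and C4b, by 0.21 (adjusted p = 0.157). Both were higher in 4 of 4 mice. Intervals were -0.024 to 0.37 for C4bp and -0.027 to 0.44 for Cfi, so rises beyond 1.36-fold lie outside both.

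**Figure D4:**
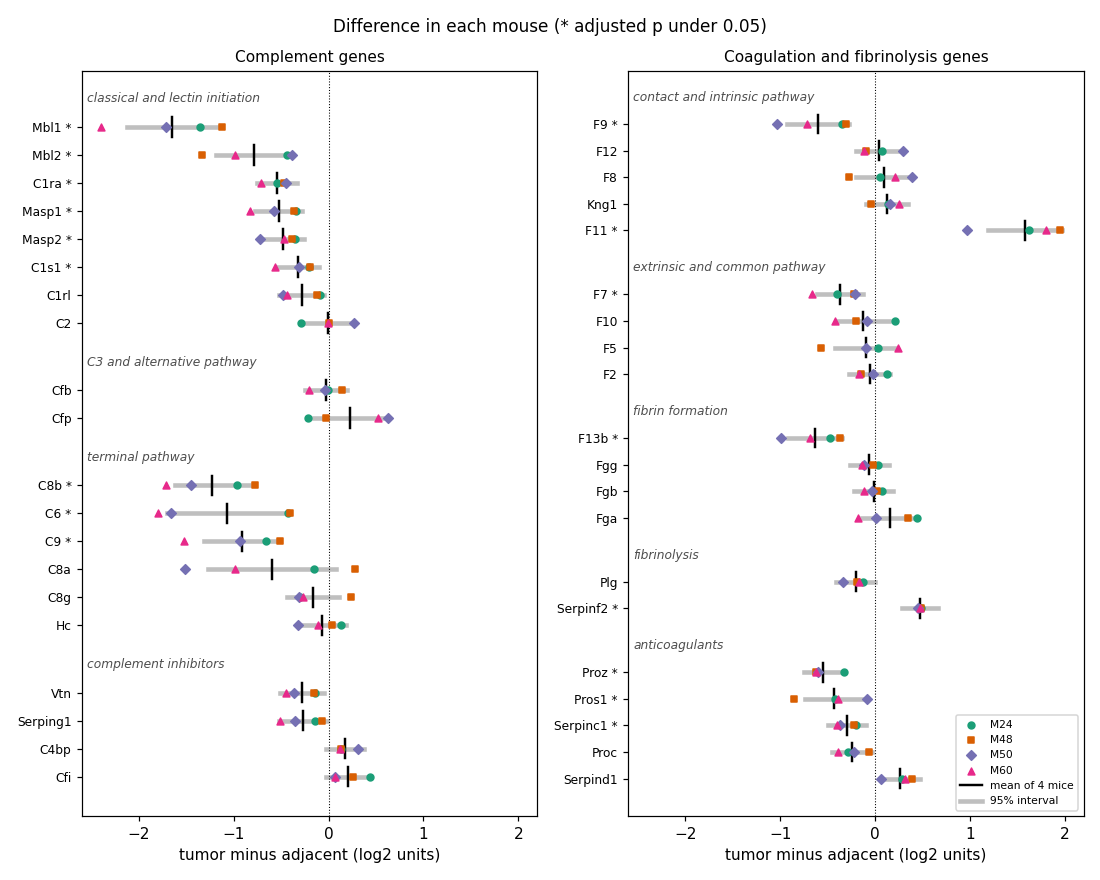
Tumor minus adjacent difference (horizontal axes, log2 units) of the 40 genes by branch, with a symbol per mouse, a black bar for the mean of 4 mice and a grey band for the 95% interval of the fit; an asterisk marks an adjusted p under 0.05. Complement genes lie mostly left of 0, Fgb and Fgg sit near 0 and Fga at 0.16, and F11 stands alone on the right at 1.59.

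Of the 20 coagulation genes 6 fell and 2 rose, and of the 20 complement genes 9 fell and 0 rose in limma (12 at an unadjusted p under 0.05, all lower). The difference between these counts was not tested. In the contact and intrinsic pathway 1 of 5 genes rose and 1 fell. F11, the zymogen that thrombin and factor XIIa turn into an activator of factor IX, was at 10.15, 9.56, 9.53 and 10.11 in tumors, against 8.52, 7.61, 8.57 and 8.30 in adjacent liver. All tumors lay above all adjacent samples, and the M48 adjacent sample was the lowest of the 8. The difference was 1.62 (M24), 1.95 (M48), 0.97 (M50) and 1.80 (M60). F11 rose by 1.59 (SE 0.163, adjusted p = 0.00116), 3.00-fold with an interval of 2.29 to 3.93, the only member with a rise of 2-fold or more. Its substrate F9, which is vitamin K dependent, was at 10.37, 10.34, 9.81 and 10.16 in tumors, against 10.72, 10.65, 10.85 and 10.88 in adjacent liver. The groups did not overlap, and F9 fell by 0.60 (SE 0.137, adjusted p = 0.0171), though without M60 its adjusted p was 0.0715.

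The starters of contact activation differed by little. F12 stood at 0.038 (interval -0.20 to 0.27) and kininogen (Kng1), the precursor of bradykinin, whose high and low molecular weight forms 1 value does not separate, at 0.13 (interval -0.091 to 0.34). Factor VIII (F8), the cofactor of factor IX and a product of endothelial cells, was at 7.09, 6.97, 7.47 and 7.33 in tumors, against 7.04, 7.24, 7.09 and 7.12 in adjacent liver. The groups overlapped, and the difference was 0.091 (adjusted p = 0.616, interval -0.20 to 0.39). Endothelial markers were higher beside it, with 7 of 12 risen, 0 fallen and none below the filter level. Their mean level was 7.77 to 8.16 in tumors and 7.23 to 7.46 in adjacent liver. Kdr (0.64), Stab1 (0.60), Lyve1 (1.49) and Pecam1 (1.02) were among the risen ones. Their part in the F8 values was not tested.

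Among the genes of the extrinsic and common pathway 1 of 4 fell and 0 rose, F7 also being the one gene with an unadjusted p under 0.05. Factor VII (F7), which starts clotting with tissue factor, was at 9.76, 9.51, 9.58 and 9.27 in tumors, against 10.16, 9.72, 9.79 and 9.93 in adjacent liver. It was lower in 4 of 4 mice, with overlapping groups, and fell by 0.37 (SE 0.101, adjusted p = 0.0324), a call lost in 4 of 11 alternative settings. Its genomic neighbour F10, the protease of the prothrombinase complex, differed by -0.12 (interval -0.40 to 0.15) and its cofactor F5 by -0.098 (interval -0.43 to 0.23). Prothrombin (F2) was at 12.59, 12.37, 12.43 and 12.35 in tumors and 12.47, 12.52, 12.45 and 12.51 in adjacent liver. Its difference of -0.053 (adjusted p = 0.694) had an interval of -0.27 to 0.16, which is 0.83 to 1.12 as a fold.

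Of the fibrinogen genes, Fgb and Fgg were nearly level. The beta chain (Fgb) was at 13.39, 13.52, 13.18 and 13.32 in tumors and 13.32, 13.50, 13.22 and 13.44 in adjacent liver, and the gamma chain (Fgg) at 13.37, 13.57, 13.17 and 13.35 in tumors and 13.34, 13.59, 13.28 and 13.49 in adjacent liver. In both genes the groups overlapped and M48 was the highest mouse in each tissue. The differences were -0.014 for Fgb (interval -0.22 to 0.19) and -0.061 for Fgg (interval -0.27 to 0.15), with adjusted p-values of 0.915 and 0.633. These values lie close to the arrays' highest readings, so a change could be understated. The alpha chain (Fga) differed by 0.16 (adjusted p = 0.371, interval -0.13 to 0.45). Its second probe gave 0.56, with 1.38 in M48, so the 2 probes disagree in size. F13b, the carrier subunit of the transglutaminase that cross-links fibrin, was at 10.32, 10.26, 9.81 and 9.98 in tumors, against 10.80, 10.62, 10.80 and 10.67 in adjacent liver. It was the 1 of 4 genes of fibrin formation that fell, by 0.63 (SE 0.118, adjusted p = 0.0086), without overlap of the groups, while 0 rose.

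For fibrinolysis, the 2 measured genes were plasminogen (Plg), the precursor of plasmin, and its inhibitor alpha-2-antiplasmin (Serpinf2). Serpinf2 was at 12.95, 12.92, 12.80 and 13.04 in tumors, against 12.47, 12.43, 12.35 and 12.57 in adjacent liver. The difference was almost equal in the 4 mice, from 0.46 to 0.48, and Serpinf2 rose by 0.47 (SE 0.0791, adjusted p = 0.00578), to 139% of the adjacent level. Plg was at 12.90, 12.86, 12.62 and 12.85 in tumors, against 13.03, 13.05, 12.95 and 13.02 in adjacent liver. All tumors lay below all adjacent samples, but the difference of -0.20 did not pass (adjusted p = 0.118, interval -0.41 to 0.00033).

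Anticoagulant genes were mostly lower, with 3 of 5 fallen and 0 risen. An unadjusted p under 0.05 was found for 5 of 5, of which 1 was higher, beside 5090 of 11963 tested genes. Proz, the cofactor of an inhibitor of factor Xa and the neighbour of F10, was at 10.15, 9.61, 9.74 and 9.87 in tumors, against 10.47, 10.23, 10.35 and 10.49 in adjacent liver. Without overlap, it fell by 0.54 (SE 0.0879, adjusted p = 0.00522). Antithrombin (Serpinc1), the main inhibitor of thrombin and factor Xa, fell by 0.30 (SE 0.085, adjusted p = 0.0378) and was at 12.26, 12.19, 12.06 and 12.09 in tumors, against 12.45, 12.41, 12.44 and 12.49 in adjacent liver. These groups did not overlap either, yet the call was lost in 5 of 11 alternative settings. Protein S (Pros1), the cofactor of activated protein C, fell by 0.44 (adjusted p = 0.0415), with levels of 9.08, 9.83, 9.09 and 8.94 in tumors and 9.49, 10.68, 9.17 and 9.33 in adjacent liver. M48 had the highest level in both tissues and the largest fall (-0.85), M50 the smallest (-0.08), and with no replicate block the adjusted p was 0.358. Without M48 the difference was -0.30 (adjusted p = 0.089). Pros1 was called in only 5 of 11 alternative settings. Protein C (Proc) differed by -0.24 (adjusted p = 0.079). Heparin cofactor II (Serpind1), another inhibitor of thrombin, differed by 0.26 (adjusted p = 0.0666), with all tumors above all adjacent samples.

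Across the 7 vitamin K dependent members, F2, F7, F9, F10, Proc, Pros1 and Proz, 4 fell and 0 rose, with 5 at an unadjusted p under 0.05, all lower. Their median was -0.37. Of 7 genes of the vitamin K cycle and of factor export, 2 rose (28.6%) and 1 fell (14.3%), beside 16.3% and 15.7% of all tested genes. Vkorc1, the epoxide reductase that warfarin blocks, fell by 0.66 (adjusted p = 0.00407) and was lower in 4 of 4 pairs. Nqo1, a quinone reductase, rose by 1.30 and Mcfd2, part of the export receptor of factors V and VIII, by 0.39, whereas the Vkorc1 relative Vkorc1l1 did not pass at 0.26 (adjusted p = 0.0526).

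The mice differed in how far the members moved. The tumor was the lower sample for 25 of the 40 members (M24), 28 (M48), 29 (M50) and 31 (M60), and the median differences were -0.15, -0.15, -0.26 and -0.39. Among the 15 members that fell, the largest of the 4 falls was that of M60 in 10 genes, M50 in 3, M48 in 2 and M24 in 0. Without M60, 8 of the 15 were still called, without M24 or M50 11 each, and without M48 12, with C8a added. The 8 genes called lower in all 11 alternative settings were C1ra, Mbl1, Masp1, Masp2, C8b, C9, F13b and Proz, and both rises, F11 and Serpinf2, were called in all 11 as well.

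Other genes of the complement system, from a list of 27 of which 20 were tested, fell in 6 cases and rose in 2. These are 30% and 10%, beside 15.7% and 16.3% of all tested genes. The collectin Colec10, a further recognition protein of the lectin pathway, fell by 1.45 (SE 0.199, adjusted p = 0.00298) and the ficolin Fcna by 0.77 (adjusted p = 0.00361). The collectin Colec11, named here after its value was seen, did not pass at -0.23 (adjusted p = 0.256), and the ficolin Fcnb lay below the filter level. Cd59a, which blocks the pore on the cell's own membrane, fell by 0.82, and the carboxypeptidase N subunit Cpn2 by 0.45. C4b, whose protein is cut by C1s and Masp2, fell by 0.51 and its near copy C4a by 0.53, and probes of such near copies may share signal. These 2 were chosen for naming after their values were seen, as were the 2 that rose, the receptors C3ar1 (0.79) and C5ar1 (0.44). Among 19 tested genes of a second list, on coagulation and fibrinolysis, 9 rose (47.4%) and 3 fell (15.8%). The thrombin receptor F2r rose by 1.20 (SE 0.0931, adjusted p = 0.000449), the tissue plasminogen activator Plat by 1.42 and annexin A2 (Anxa2), a receptor of plasminogen and its activator, by 3.54, while the protease Habp2 fell by 0.42. Adjacent levels of Plat averaged 4.37, below the filter level of 4.60, so the size of its rise is uncertain.

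Transcription factors active in hepatocytes moved beside these genes: 7 of 12 tested factors fell and 1 rose. Of 15 listed factors 13 were measured, and no HNF1 gene was among them. The bile acid receptor Nr1h4 fell by 1.12 (adjusted p = 0.000949), Nr2f2 by 0.60 and Cebpa, a C/EBP protein, by 0.57, Hnf4a, which binds the HNF4 core and was chosen for naming after its value was seen, by 0.35, and Foxa3 rose by 0.90. Their part in the member values was not tested. Markers of other cells were also measured, and their part was not tested either. Cholangiocyte markers rose in 2 of 4 cases (mean level 5.07 to 6.08 in tumors, 4.82 to 4.99 in adjacent liver), among them Sox9 (1.36) and Krt19 (0.85), and Cftr lay below the filter level. Stellate cell markers rose in 3 of 8 cases (7.71 to 8.03 in tumors, 6.93 to 7.75 in adjacent liver), namely Acta2 (2.21), Col1a1 (1.92) and Pdgfrb (0.58). The median over the 8 stellate cell markers was 0.026, and Lrat (-0.37), Dcn (-0.25), Hand2 (-0.23) and Des (-0.18) stood below 0 without passing. T and NK cell markers rose in 1 of 5 cases, Ccl5 at 1.25, which is 20%, beside 16.3% of all tested genes. Their mean level was 6.06 in the M60 tumor and 4.74 to 5.10 in the other tumors, against 4.32 to 4.76 in adjacent liver. B cell, neutrophil and platelet markers had 0 calls among 2, 2 and 4 tested genes, with 0, 1 and 2 at an unadjusted p under 0.05. Of the T and NK cell markers 3 of 8 lay below the filter level (Cd4, Klrb1c and Ncr1), of the B cell markers 2 of 4 (Cd79a and Ms4a1), of the neutrophil markers 5 of 7 and of the platelet markers 1 of 5 (Gp9). Mean levels in tumors and adjacent liver were 4.18 to 5.38 and 4.13 to 4.78 for B cells, 4.06 to 4.54 and 4.12 to 4.90 for neutrophils. Platelet markers averaged 5.21 to 5.81 in tumors, with M48 the highest, and 6.00 in the adjacent liver of M48, against 5.32 or less in the other adjacent samples.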

How the data were processed

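RNA of 8 liver samples was measured on 1 Affymetrix mouse gene array each. The authors deposited log2 values for 28874 probes with 0 missing values, and the range of the values gave the log base. MAS5 is named, per the submitters' processing notes, without its role. How background was corrected and arrays were normalized is not given in the labels or headers used. Depth does not apply to arrays, whose number limits the precision.

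Genes were named from the platform annotation (21789 probes with 1 symbol, 1621 with several and 5464 with none), and each of 19938 genes was represented by its probe with the highest mean. The 40% with the lowest means (below 4.60) were left out. The fit used limma 3.58.1 in R 4.3.3 (lmFit, eBayes with a trend), with the mouse as a block because, per the labels, both tissues came from 1 animal; it had 3 residual and 3.64 prior degrees of freedom, and tests were two-sided. Deviations from group means correlated at 0.0986 to 0.421 within mice and -0.378 to 0.189 between mice. The fit was tested on simulated data.

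The members and lists were chosen with earlier results of these data known. The lists were further complement genes, further coagulation genes, vitamin K genes, hepatocyte factors and markers of 9 cell types; beyond the members, up to 4 genes with the smallest p of each list could be named. Alternatives were no replicate block, 2 other scalings, 2 other filters, the mean of a gene's probes, no trend and each mouse left out.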

Additional observations from a re-analysis of the deposited data

Results flagged for a closer look

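In each of 120 groups of 4 values (tumor levels, adjacent levels and differences of the 40 genes), the highest or lowest value was checked for its distance from the other 3, and 10 were farther away than Dixon's 95% critical value allows. Chance flags about 1 in 20 such groups. Of these values 6 belonged to M48. Its tumor had the highest Cfp level, 9.24, against 7.70 for the nearest tumor, and the highest Pros1 level, 9.83, against 9.09. Its adjacent liver was low for C8b, at 11.61 against 12.03, and for C8g, at 10.92 against 11.50, and high for F5, at 11.32 against 10.96. The C8g difference of M48 was 0.23, whereas the nearest other mouse stood at -0.28. In M50, the tumor had a Plg level of 12.62 against 12.85 for the nearest tumor, the adjacent liver had an Hc level of 12.40 against 12.46, and the C4bp difference was 0.30 against 0.13. The Proz difference of M24, -0.32, was smaller in size than the nearest of the other mice, -0.61.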

How the results depend on the processing

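With no replicate block 12 members fell and 2 rose, and C1s1, F7 and Pros1 lost their calls. Between 8 (without M60) and 13 members (without M48) fell with 1 mouse left out, and 2 to 3 rose. Over all genes these fits called 1246 to 1754 higher and 1070 to 1722 lower. The member median ranged from -0.30 to -0.19 there. Quantile normalization gave 12 lower and 3 higher, median centring 15 and 2, no filter 13 and 2, and a filter on the lowest 60% 16 and 2. Median centring moved the fibrinolysis median to 0.080. No gene that had passed changed sign. Among the others, F12 stood at -0.018 with median centring and C2 at 0.017 with quantile normalization. With 1 mouse left out, C2 ranged from -0.099 to 0.089, F5 from -0.21 to 0.059, Hc from -0.13 to 0.021, F12 from -0.046 to 0.091, F8 from -0.0067 to 0.21, Cfb from -0.082 to 0.034 and Fgb from -0.043 to 0.019. The median of the contact pathway was -0.0067 without M50 and that of the complement inhibitors 0.00068 without M60. The causes were not tested. Levels near the top of the arrays limit what can be seen of Fgb and Fgg, and no scan batch was known.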

Other observations

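Of the 19 tested further coagulation genes 9 rose and 3 fell, and those not yet described are given here, chosen for naming after their values were seen and with no test of a shared theme. Thrombomodulin (Thbd), which turns thrombin toward protein C, was at 5.97, 6.17, 6.99 and 6.03 in tumors, against 5.47, 5.77, 5.77 and 5.13 in adjacent liver, and rose by 0.76 (limma adjusted p = 0.0112). Tissue factor pathway inhibitor (Tfpi) rose by 0.63 (adjusted p = 0.0091) and the protein C receptor (Procr) by 0.55 (adjusted p = 0.0191), each higher in 4 of 4 mice. The related inhibitor Tfpi2 stood at -0.31, lower in 4 of 4 mice, and did not pass (adjusted p = 0.0859). Endothelial markers rose beside them, in 7 of 12 cases, and their part was not tested.

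Urokinase (Plau) was at 5.51, 6.41, 6.93 and 5.69 in tumors, against 5.21, 5.51, 4.81 and 4.85 in adjacent liver, and rose by 1.04 (adjusted p = 0.028). Its receptor Plaur rose by 1.12 (adjusted p = 0.0159), and S100a10, the partner of annexin A2, by 0.72 (adjusted p = 0.0203). The von Willebrand factor protease Adamts13 fell by 0.50 (adjusted p = 0.0278) and the fibrinogen-like protein Fgl1 by 0.62 (adjusted p = 0.0202).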
